A study of Rattus norvegicus with 3 samples.

Results

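This account describes the rat soleus, a hind limb muscle of slow fibres that holds posture, after 7 days without load, set against the soleus of normally loaded rats. The comparison takes every gene named in the array annotation used here whose signal reached a floor, the 40th percentile of all signals, in the control or the 7-day pool, which 11050 of 14217 named genes did. Sprague-Dawley rats of 8 weeks were left untreated or were suspended by the tail at about 30 degrees, which lifts the hind limbs off the ground, for 7 or for 14 days. Each of the 3 groups gave 1 pool made from RNA of 4 rats, read on 1 Affymetrix rat array, so the comparison has 1 array on either side, holds no spread between animals and carries no test. The control is labelled as a 7-day control. The 14-day pool, which one label field calls 7 days and the title and time field call 14 days, shares that control and is given only as a side value.

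Suspension of the hind limbs is a ground model of weightlessness. The soleus works against gravity for most of the day, and without that load its fibres shrink and shift from slow toward fast contractile proteins. Fibre size follows the balance of protein synthesis, which the kinase complex mTORC1 promotes, and of breakdown, which glucocorticoid hormones promote, while stretch is read at the sarcomere, at the fibre membrane and at the tendon.

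Signals are log2 values as deposited, 3 values in a row are those of control, 7 days and 14 days, and fold values compare 7 days with control unless stated otherwise. The tissue was checked with genes of slow muscle, Myh7, Tnni1, Tnnt1, Tnnc1 and Myl3, and of muscle in general, Actn2, Ckm and Des. These genes lay between 14.29 and 15.81 in control and between 14.22 and 15.84 at 7 days. That is close to the top of the scale at 15.94 and 16.03. Of 8 genes of other tissues, Apoa1, Umod and Prl lay under the floor of 6.01 on both arrays, 5 reached it on at least 1, and the brightest, the cardiac myosin gene Myh6, was at 8.51 in control and 9.33 at 7 days. Over 2407 genes with a further probe set on both arrays, the technical SD of 1 probe set's log2 difference was 0.36, being 0.47 for signals under 8, 0.34 from 8 to 10 and 0.27 above. That spread holds no biological variation. Precision is limited throughout by the number of arrays. The 3' minus 5' difference, a measure of RNA length, was 0.25 and 0.24 for Gapdh and 1.16 and 1.21 for beta-actin in control and at 7 days, but 2.85 and 1.58 for hexokinase, and its part in the results was not tested.

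At 7 days 248 genes (2.24%) were at least 2-fold higher than control and 268 (2.43%) at least 2-fold lower, 516 or 4.67% in all. At a 1.5-fold limit these were 1015 genes (9.19%) and 1028 genes (9.30%), and the median of all genes was 0.0013. With each array centred on its own median, the all-gene median moved to 0.07 and the 2-fold genes became 324 higher and 217 lower, so the share on the higher side went from 48.1% to 59.9%. The same centring moved the medians of the 122 gene lists and families upward by 0.02 to 0.13, so a list median between -0.07 and 0 has no settled sign. For 36 of the higher and 49 of the lower genes the dimmer array lay under the floor, and their fold is a bound written "at least". Of 80 genes with a further probe set and a 2-fold difference by the brighter one, 70 had the same sign in the further probe set and 51 were at least 1.5-fold apart the same way. The RNA came from whole muscle, so fewer cells of a type and less RNA per cell cannot be told apart.

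**Figure D1:**
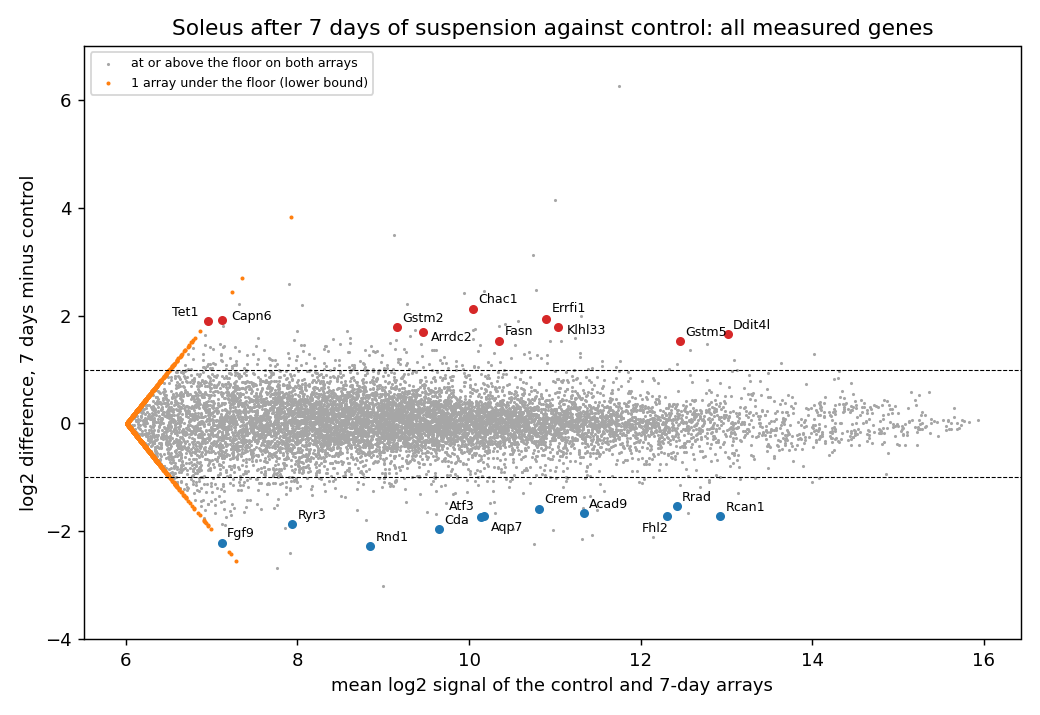
Log2 difference between 7 days and control (vertical axis) against the mean log2 signal of both arrays (horizontal axis) for all 11050 measured genes, with dashed lines at 2-fold. Orange points are genes with 1 array under the floor, which fan out from the left edge. Labelled genes are described in the text, such as Chac1 at 2.12 and Rnd1 at -2.27.

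Among genes that reached the floor on both arrays, the largest differences at 7 days were those of the fast fibre genes Myh4, a myosin heavy chain (8.62, 14.88 and 15.28, 76.4-fold higher), and Actn3, an alpha-actinin (8.94, 13.07 and 15.27, 17.6-fold). They were followed by Pck1, which feeds glucose and glycerol synthesis (7.38, 10.87 and 9.59, 11.2-fold), and the stress gene Gadd45g (9.18, 12.31 and 11.64, 8.73-fold). Lowest against control were Ankrd1, a stretch-responsive protein bound to titin (10.51, 7.49 and 10.35, 8.1-fold lower, further probe set -2.99), and Hbegf, a growth factor for the epidermal growth factor receptor (9.11, 6.43 and 6.96, 6.42-fold). Both fast fibre genes were higher still at 14 days, whereas Ankrd1 was near its control signal by then.

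Genes that glucocorticoid hormones induce stood above control almost as a block. Of 30 measured members of the list, 28 were above control against 50.2% of all genes, 15 were at least 1.5-fold above it against 9.19%, and none was as far below. The list median was 0.59 on the log2 difference scale. This list, like the others below, was chosen with earlier results of these data known, so its counts beside those of all genes describe it and are no test. The list holds signalling brakes beside the known wasting genes. Errfi1, an inhibitor of the epidermal growth factor receptor, had signals of 9.93 in control, 11.86 at 7 days and 10.65 at 14 days, and was 3.81-fold higher at 7 days. Arrdc2, an arrestin-like adaptor that steers membrane proteins to ubiquitin ligases, had 8.62 in control, 10.31 at 7 days and 9.23 at 14 days, 3.23-fold. Rasd1, a small GTPase named for its induction by dexamethasone, had 7.62 in control, 9.0 at 7 days and 7.60 at 14 days, 2.6-fold. All 3 genes were lower at 14 days than at 7 days, and Rasd1 was back at the control level.

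The list also held genes that act on growth and on the hormone signal itself. Pik3r1, the regulatory subunit of phosphoinositide 3-kinase, lay at 6.93 in control, 8.29 at 7 days and 7.75 at 14 days (2.56-fold higher). The kinase Sgk1 lay at 9.27 in control, 10.42 at 7 days and 10.50 at 14 days (2.22-fold) and Cdkn1a, the cell cycle inhibitor p21, at 10.51 in control, 11.49 at 7 days and 11.45 at 14 days (1.98-fold), with a difference of 1.0 in a further probe set. Foxo3, a transcription factor that drives breakdown genes, was 1.53-fold higher with 10.93 in control and 11.54 at 7 days, and lay at 10.68 at 14 days. The mean over all probe sets of Foxo3 differed by -0.36, in the opposite direction. Other textbook targets differed little: Fkbp5, a chaperone of the receptor, differed by 0.55 and Tsc22d3, also called Gilz, by 0.18. The receptor gene Nr3c1 differed by 0.46. Members at or below control were few, Mt2A at -0.12 and Lcn2 at -0.13.

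Among Kruppel-like and Sp factors, a family of zinc finger regulators of which some answer to glucocorticoids, 13 of 15 measured genes were above control with a median of 0.43, though only Klf9 at 13.15, 13.79 and 13.48 (1.56-fold higher) passed 1.5-fold upward. The mean of all its probe sets differed by -0.13. Klf16 passed it downward (1.51-fold lower). Klf2, known from vessel walls, lay just inside the limit with a difference of 0.58, and its further probe sets ranged from -0.42 to 0.87. The family median was little more than the technical SD of a single probe set.

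Several brakes on mTORC1 stood above control, while its core subunits lay within 1.5-fold of it. Of 34 measured genes of the complex, its inputs and some of its targets, 6 were at least 1.5-fold above control and 2 as far below. The list median was 0.02. Ddit4l, a muscle relative of Ddit4 that also restrains the complex, was among the bright ones, at 12.19 in control, 13.84 at 7 days and 13.64 at 14 days (3.14-fold higher). Deptor, an inhibitor bound to mTOR itself, had 10.27 in control, 11.54 at 7 days and 11.60 at 14 days (2.41-fold) and a difference of 2.28 in a further probe set. Eef2k, a kinase that slows elongation, is a target of the complex and not a brake on it. It had 9.11 in control, 9.89 at 7 days and 10.12 at 14 days (1.73-fold), with 1.39 and 2.31 in further probe sets. All 3 stayed above control at 14 days.

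Amino acid sensors of the same pathway went both ways. Sesn2, a leucine sensor, was 1.5-fold higher at the low signals of 6.56, 7.15 and 6.85, whereas Sesn3 was at least 1.62-fold lower, its 7-day signal lying under the floor. Flcn, which passes the amino acid signal on at the lysosome, was 1.53-fold lower (11.43, 10.82 and 10.83). The kinase gene Mtor differed by 0.13, its partner Rptor by -0.55, and the activating GTPase Rheb by 0.07. Among 49 measured genes that carry the symbol of initiation factors none passed 1.5-fold downward, and the median was 0.08. The 1 that passed it upward is not such a factor but an inhibitor of one: Eif4ebp1, the binding protein of eIF4E, lay at 10.73, 11.72 and 11.02 (1.98-fold higher).

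The integrated stress response slows translation and switches on genes of amino acid supply, and its members parted into those above and those below control. Chac1, which breaks down glutathione, was 4.36-fold higher, at 8.99 in control, 11.11 at 7 days and 11.21 at 14 days. Trib3, a pseudokinase, was 1.71-fold higher at 6.46, 7.23 and 6.82, and a further probe set differed by -0.01 and the mean of its probe sets by -0.04. Below control lay Atf3, a stress transcription factor, at 11.01 in control, 9.27 at 7 days and 10.23 at 14 days (3.34-fold lower), together with Ddit3, also called CHOP, at 10.82, 9.92 and 10.71 (1.88-fold), and Ppp1r15a, the phosphatase subunit that ends the response, at 10.30, 9.36 and 9.16 (1.92-fold). Of 21 measured members, 3 lay at least 1.5-fold above control and 3 as far below, and the median was 0.13.

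The enzymes that make serine from a glycolytic intermediate all stood above control. Phgdh, the first step, was at least 2.75-fold higher with 5.85 in control, 7.47 at 7 days and 8.32 at 14 days, its control value lying under the floor. Psat1, the next step, had 7.84 in control, 8.64 at 7 days and 8.70 at 14 days (1.74-fold), and Psph, the last step, had 7.79 in control, 8.42 at 7 days and 8.54 at 14 days (1.55-fold). The 3 enzymes stayed at these levels or higher at 14 days. Aldh1l2, a mitochondrial folate enzyme, was 1.71-fold higher (7.78, 8.55 and 8.58), Cbs, which draws on serine to make cystathionine, 1.9-fold (6.75, 7.68 and 7.35), and Gatm, the first enzyme of creatine synthesis, 1.93-fold (8.47, 9.41 and 8.96). Gnmt, a glycine methyltransferase, was at least 1.95-fold lower and Ahcyl2, a relative of the enzyme that clears homocysteine's precursor, 1.65-fold. Other genes of the methyl cycle lay on both sides of control within 1.5-fold: Ahcy differed by 0.18, Ahcyl1 by 0.20, Mat2b by 0.18 and Mat2a by -0.43. In the whole list of 22 measured genes of serine, glycine and one-carbon metabolism, 6 passed 1.5-fold upward and 2 downward, with a median of 0.10.

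Among amino acid carriers more genes passed 1.5-fold upward than downward. Slc43a1 and Slc43a2, carriers of large neutral amino acids, were 1.93-fold higher (8.62, 9.57 and 9.51) and 1.75-fold (9.39, 10.20 and 10.53). Slc7a6, an exchanger of cationic and neutral amino acids, was 1.74-fold higher at 7 days and at its control signal at 14 days (9.39, 10.19 and 9.39). Slc38a1, a glutamine carrier, was 1.52-fold lower (11.28, 10.67 and 9.99), though the mean of its probe sets differed by 0.24. Over the 21 measured transporters 5 passed 1.5-fold upward and 1 downward, and the median was -0.04. Genes that break down branched-chain amino acids leaned downward, 17 of 24 being below control, with a median of -0.14.

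**Figure D2:**
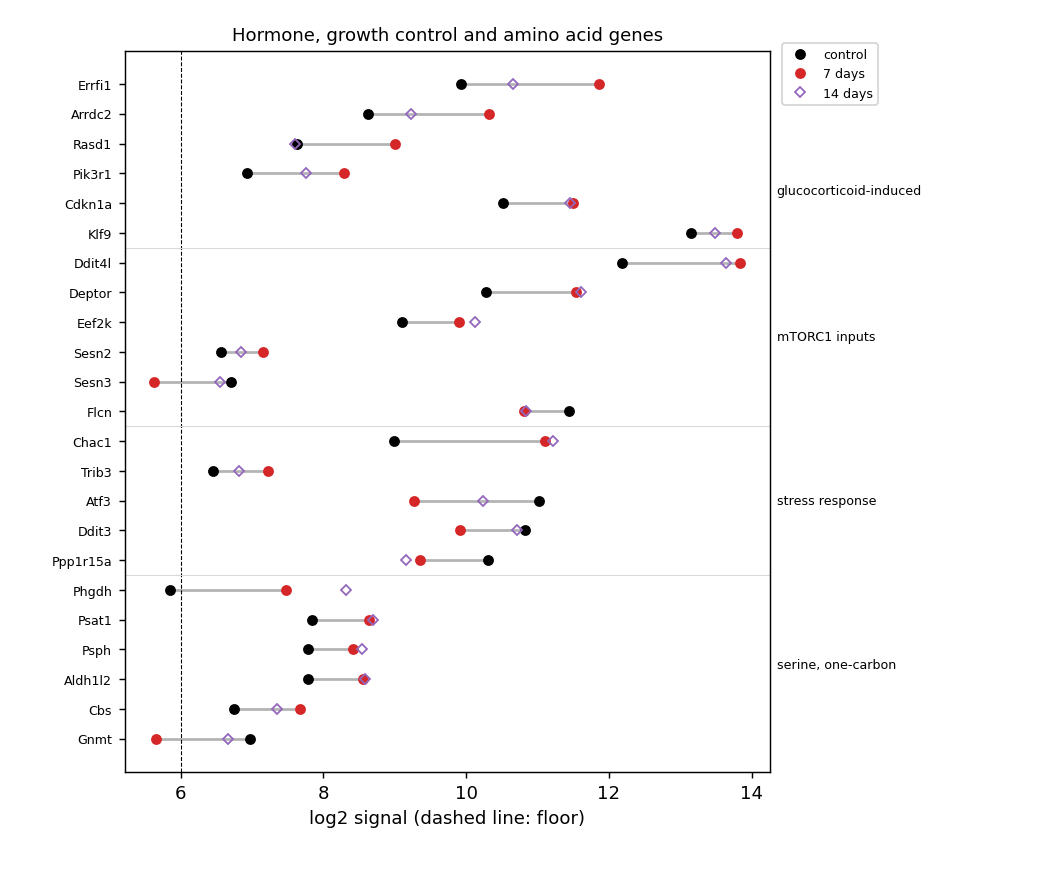
Log2 signals (horizontal axis) of 23 genes on the control array (black), the 7-day array (red) and the 14-day array (open diamonds), with the floor as a dashed line. Errfi1, Arrdc2 and Rasd1 lie nearer control at 14 days than at 7 days, whereas Ddit4l, Deptor, Chac1 and the serine enzymes Phgdh, Psat1 and Psph stay to the right of control.

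Enzymes of fat synthesis stood above control, and proteins of stored fat lay on both sides of it. In 31 measured genes of fatty acid synthesis, triglycerides and lipid droplets, 23 were above control, 7 passed 1.5-fold upward and 4 downward, with a median of 0.31. Fasn, the fatty acid synthase, had 9.58 in control, 11.12 at 7 days and 10.88 at 14 days (2.9-fold higher), and a further probe set differed by 1.74. Thrsp, a nuclear protein that goes with lipogenesis, had 9.63 in control, 10.94 at 7 days and 10.13 at 14 days (2.48-fold), with 0.95 and 1.55 in further probe sets. Slc25a1, the carrier that exports citrate from mitochondria for this synthesis, had 7.19 in control, 8.74 at 7 days and 8.45 at 14 days (2.91-fold). Elovl6, which lengthens the product, was at least 2.26-fold higher from a control signal under the floor, and its further probe set differed by only 0.13.

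On the storage side Plin1, the droplet coat of fat cells, was 2.19-fold higher (8.71, 9.84 and 9.64). Its relatives Plin4 and Plin5 were 2.05-fold lower (12.55, 11.52 and 11.60) and 1.77-fold lower (10.59, 9.76 and 8.82). Plin2 and Plin3 differed by -0.14 and 0.31. G0s2, an inhibitor of fat breakdown, was 1.96-fold lower (11.89, 10.92 and 11.45), and Mlxipl, the carbohydrate-response factor ChREBP, 1.87-fold lower (8.52, 7.61 and 7.51). Aqp7, the glycerol channel, was 3.3-fold lower (11.03, 9.31 and 8.80), and Pnpla4, a lipid hydrolase, 3.38-fold lower (7.79, 6.03 and 6.71). Of 9 measured markers of fat cells 6 were above control, Adipoq was at 9.54, 10.44 and 10.15, and Lep and Ucp1 lay under the floor on both arrays. The summed unlogged signal of the list came to 77194 in control, 80860 at 7 days and 70786 at 14 days. Its brightest member, Car3 at 15.67, 15.56 and 15.54, made up most of each sum, so the sums say little about the other markers. What part fat cells had in the lipid genes was not tested.

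Cholesterol synthesis leaned upward as well, with 15 of 22 genes above control, 6 past 1.5-fold upward, 2 downward and a median of 0.30. Insig1, the sterol sensor partner, had 8.75, 9.44 and 9.74 (1.61-fold higher) and Srebf2, the master factor of the pathway, 7.86, 8.54 and 8.34 (1.61-fold). Lss, which closes the sterol rings, was 1.63-fold higher (7.07, 7.77 and 7.22). The early enzymes Mvk (7.76, 6.74 and 7.33) and Mvd (8.37, 7.63 and 7.71) were 2.03-fold and 1.67-fold lower, so the pathway did not stand above control as a whole. Phospholipid and sphingolipid synthesis leaned the other way, with none of 24 genes past 1.5-fold upward, 3 downward and a median of -0.12; Chkb, a choline kinase of muscle, was 1.79-fold lower (10.80, 9.96 and 10.09).

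Glutathione S-transferases, which join glutathione to reactive compounds, held several large differences. Of 16 measured genes 7 were at least 1.5-fold and 6 at least 2-fold above control, 2 were at least 1.5-fold below, and the median was 0.21. Gstm2 had 8.27 in control, 10.05 at 7 days and 10.25 at 14 days (3.44-fold higher), Gstm1 8.15, 9.30 and 9.48 (2.22-fold) and Gstm4 7.94, 9.03 and 9.13 (2.12-fold). The bright Gstm5 had 11.70 in control, 13.22 at 7 days and 12.41 at 14 days (2.88-fold). Genes of the mu class resemble one another in sequence, and their probe sets may share transcript, so they are not independent counts. Members of other classes stood with them, Gstt3 at 8.13, 9.19 and 9.36 (2.08-fold higher) and Gstz1, which also acts in tyrosine breakdown, at 8.56, 9.93 and 9.33 (2.59-fold). The membrane-bound members divided, with Mgst1 1.8-fold higher (10.84, 11.68 and 11.20) and the much brighter Mgst3 2.02-fold lower (14.58, 13.57 and 13.85). Nfe2l2, the oxidative stress factor that drives many of these genes, differed by -0.09, and Gclc, which makes glutathione precursor, by -0.54.

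Genes of lactate and acid handling lay on both sides of control. Slc16a3, the lactate exporter MCT4 of glycolytic fibres, had 11.18 in control, 12.33 at 7 days and 13.11 at 14 days (2.22-fold higher), and Ldha, the pyruvate-reducing lactate dehydrogenase, 13.88 in control, 14.72 at 7 days and 14.99 at 14 days (1.8-fold). Below control lay Slc16a7, the high-affinity carrier MCT2, at 7.93, 6.89 and 7.83 (2.06-fold lower), and Emb, a chaperone of such carriers, at 8.01, 6.83 and 7.33 (2.26-fold). Slc4a3, a bicarbonate exchanger, was 2.44-fold lower (10.48, 9.19 and 9.18), while Car5b, a mitochondrial carbonic anhydrase, was 2.31-fold higher (7.30, 8.51 and 8.04). The list as a whole had a median of -0.08, with 4 of 17 genes past 1.5-fold upward and 3 downward.

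Glucose uptake and storage gave a small number of larger differences. Irs2, an adaptor of the insulin receptor, was 2.09-fold lower (10.11, 9.05 and 8.79) and Slc2a3, a glucose carrier, 1.89-fold (8.08, 7.16 and 7.49). Tbc1d4, which gates carrier vesicles, was 1.55-fold higher (10.82, 11.46 and 11.46). Of 15 measured glycogen genes 10 were above control, with a median of 0.19. Pygm, the phosphorylase of muscle, was 1.72-fold higher at 13.78 at 7 days, and Phkg1 (1.62-fold) and Phkb (1.58-fold), subunits of the kinase that turns it on, passed 1.5-fold upward as well. Another subunit of that kinase, Phka1, differed by -0.14. Gaa, which degrades glycogen in lysosomes, was the 1 gene past the limit downward (10.48, 9.81 and 10.08, 1.59-fold lower), so the breakdown enzymes did not lie on one side.

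Targets of hypoxia-inducible factors lay below control more often than above, 16 of 24, with a median of -0.30. Ankrd37 had 7.98 in control, 6.50 at 7 days and 7.40 at 14 days (2.8-fold lower), Pfkfb4 8.37, 7.26 and 8.0 (2.15-fold) and the collagen-modifying enzyme P4ha1 10.52, 9.60 and 10.41 (1.89-fold). Vegfa, the vessel growth factor, had 11.78 in control, 10.97 at 7 days and 11.46 at 14 days (1.75-fold lower) with -0.98 in a further probe set. Past 1.5-fold upward were the glycolytic genes Ldha, as above, and Pfkfb3, at 8.10, 9.17 and 9.50 (2.11-fold higher). Endothelial markers lay in the same direction as Vegfa: 11 of 13 were below control, with a median of -0.15, a lowest member in Nos3 at 7.56, 6.64 and 6.71, none under the floor on both arrays and a summed unlogged signal of 14408 in control, 12502 at 7 days and 14173 at 14 days. Their part was not tested.

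**Figure D3:**
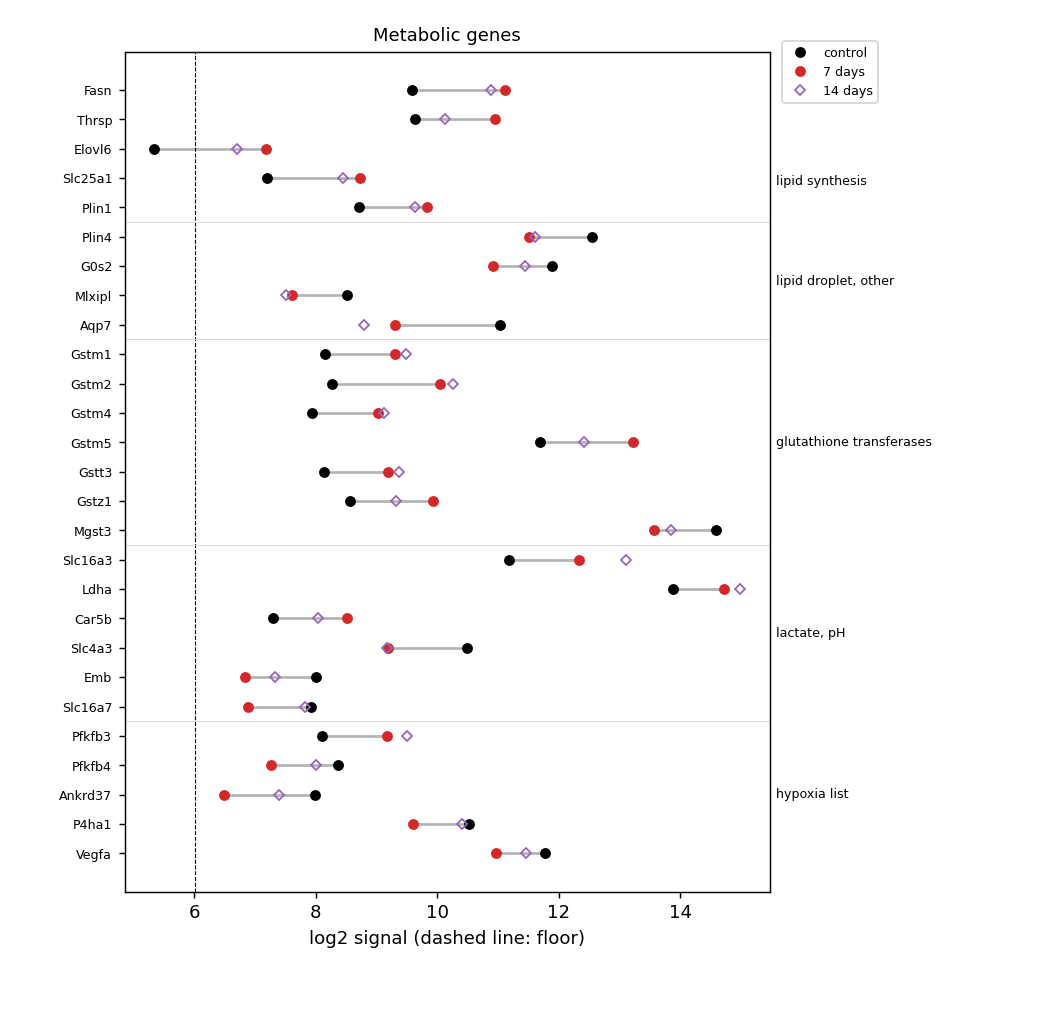
Log2 signals (horizontal axis) of 27 metabolic genes on the control (black), 7-day (red) and 14-day (open diamonds) arrays, with the floor as a dashed line. Fat synthesis genes and most glutathione transferases lie to the right of control at 7 days, while Plin4, G0s2, Mlxipl, Aqp7 and Mgst3 lie to the left.

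Mitochondrial machinery stood slightly but broadly below control. Of 73 genes of the mitochondrial ribosome 54 were below it against 49.8% of all genes, with a median of -0.16. None of them passed 1.5-fold upward and 3 passed it downward, the farthest being Mrpl45 at 12.47, 11.80 and 11.90 (1.59-fold lower). Of 42 genes of complex I and its assembly, 36 were below control and the median was -0.23. Ndufs8, a subunit that carries iron-sulphur clusters, was 1.93-fold lower (13.35, 12.40 and 12.81), and Ndufs4 was the exception, 2.07-fold higher (11.19, 12.23 and 11.82). The assembly factor and acyl-CoA dehydrogenase Acad9 was 3.17-fold lower (12.17, 10.50 and 10.09). Each family step was below the technical SD of a single probe set, and with median-centred arrays the medians shrank to -0.08 and -0.16.

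Other mitochondrial lists leaned the same way. Of 22 fusion, fission and mitophagy genes 17 were below control and the median was -0.15, and for genes of mitochondrial DNA, transcription and proteostasis it was 16 of 23 and -0.18. Mtfr1, a fission regulator, was 1.59-fold lower (12.06, 11.39 and 11.78), while Gdap1, another fission protein known from nerve, was at least 2.87-fold higher from a control signal under the floor. The mitochondrial aminoacyl-tRNA synthetases Cars2 (8.16, 6.75 and 6.80) and Sars2 (7.95, 6.72 and 7.09) were 2.66-fold and 2.35-fold lower. Esrra, a nuclear receptor that drives mitochondrial genes, was 1.93-fold lower (11.36, 10.41 and 10.37), and its relative Esrrb 1.84-fold (8.22, 7.34 and 6.81).

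Single genes of the sarcomere, of small GTPases and of calcium signalling lay far below control. The 5 given here were chosen for their large differences and form no list. Fhl2, a LIM protein of the sarcomere, had 13.16 in control, 11.45 at 7 days and 10.23 at 14 days (3.27-fold lower), with -1.63 in a further probe set, and was lower still at 14 days. Rnd1, a GTPase that loosens actin, had 9.98 in control, 7.71 at 7 days and 7.52 at 14 days (4.83-fold), Rhou, a related GTPase, 12.29 in control, 10.69 at 7 days and 10.48 at 14 days (3.03-fold), and Rrad, a GTPase that restrains calcium channels, 13.19 in control, 11.65 at 7 days and 11.82 at 14 days (2.9-fold). Rcan1, a feedback inhibitor that calcineurin induces, was 3.29-fold lower (13.78, 12.07 and 11.88). All 5 genes were also below control at 14 days. Lists near to them differed. Of 30 genes of actin assembly and turnover 13 were above and 17 below control, with 2 past 1.5-fold upward, 4 downward and a median of -0.04. Of 22 genes of the stretch-sensitive YAP, TAZ and TEAD pathway 13 were above and 9 below, with 3 and 4 past the limit and a median of 0.14. The list of serum response factor, given next, holds Fhl2 and had more genes below control than above.

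Serum response factor and its MRTF partners switch on actin and early response genes. Of 26 measured members 9 were above and 17 below control, and 6 passed 1.5-fold downward and 2 upward, with a median of -0.11. The lowest was Fhl2, given above. Myocd, a co-activator of the factor, was 2.13-fold lower (9.68, 8.59 and 8.77), while Mrtfa, the actin-sensing co-activator, was 2.52-fold higher (7.92, 9.25 and 9.11) and Mustn1, a small nuclear protein of muscle, 2.25-fold higher (12.50, 13.67 and 13.78). Among ankyrin repeat domain genes 7 of 28 passed 1.5-fold downward and 1 upward. Besides the stretch gene Ankrd1, its relative Ankrd23 lay at 13.87, 13.23 and 13.75 (1.55-fold lower). Among LIM proteins Pdlim1 (1.75-fold lower, 13.55, 12.74 and 12.14) and Lmcd1 (1.72-fold, 14.29, 13.50 and 13.20) were below control and Fhl3 (12.88, 13.68 and 12.55) was 1.74-fold higher.

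The filaments that tie sarcomeres together leaned downward, with 11 of 14 genes below control and a median of -0.24, though only 2 passed 1.5-fold downward and 1 upward. Synpo2l, a disc protein also called Chap, had 14.55 in control, 13.46 at 7 days and 13.20 at 14 days (2.13-fold lower), and nestin, Nes, 9.02, 8.04 and 8.41 (1.97-fold). Microtubule genes gave 3 of 28 past 1.5-fold downward, a share near the 9.30% of all genes, and none upward: Mapre2 (9.27, 8.28 and 8.42), Mapt, the tau protein (10.34, 9.37 and 9.54, further probe sets -0.93 and -0.82), and Map1a (8.51, 7.60 and 7.65). In the nuclear lamina and its links 12 of 16 genes were above control, with a median of 0.19, led by Lmnb1, lamin B1, at 8.64, 9.74 and 9.59 (2.15-fold higher), and Lmnb2 (1.64-fold).

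Immediate early genes, which cells switch on within minutes of a stimulus, lay as often above as below control, but those far from it were mostly below. Of 27 measured members 13 were above and 14 below control, while 9 passed 1.5-fold downward and 2 upward, 5 and 2 of them by 2-fold, and the median lay at -0.01. Fos had 12.08 in control, 10.74 at 7 days and 9.83 at 14 days (2.53-fold lower), Egr3 7.29 in control, 6.07 at 7 days and 6.11 at 14 days (2.32-fold), Maff 9.58 in control, 8.40 at 7 days and 7.40 at 14 days (2.26-fold), and Fosb was at least 2.18-fold lower with its 7-day signal under the floor. Nr4a3, an orphan receptor induced by exercise, was 1.8-fold lower (8.76, 7.92 and 7.22), and 2 further probe sets gave -0.62 and -0.41. Above control were Ier3 at 10.64 in control, 11.95 at 7 days and 12.27 at 14 days (2.47-fold higher) and Zfp36, which destabilises inflammatory messengers, at 8.08 in control, 9.12 at 7 days and 8.16 at 14 days (2.06-fold). Fos and Maff were lower still at 14 days, while Zfp36 was back near control.

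Crem, a cyclic AMP-induced repressor and activator of transcription, was among the bright genes of the lower side, at 11.60 in control, 10.03 at 7 days and 10.51 at 14 days (2.99-fold lower), and its 5 further probe sets ranged from -1.77 to -0.44. Several enzymes that make or destroy cyclic AMP stood above control instead. Phosphodiesterases Pde4d (10.15, 11.42 and 11.03) and Pde7a (7.86, 8.72 and 8.96) were 2.42-fold and 1.81-fold higher, Pde4a was at least 2.56-fold higher from a control signal under the floor, and the cyclases Adcy6 (8.50, 9.33 and 9.62) and Adcy2 (control 9.19, difference 0.81) were 1.78-fold and 1.75-fold higher. The mean of all probe sets of Adcy6 differed by -0.02. Others lay below control. Pde10a was 1.77-fold lower (9.69, 8.87 and 8.57), with -1.61 in a further probe set, and the cyclase Adcy5 differed by -0.72. Of 37 measured genes of the cyclic AMP list, 11 passed 1.5-fold upward and 6 downward, with a median of 0.09.

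Promoter windows were searched for the letters of 2 elements that such stimuli are known to use, in the lists of immediate early genes, MAP kinase feedback, cyclic AMP signalling and the integrated stress response. The windows, from RefSeq on build GRCr8, span 250 bases before to 50 after a start site, and 85 of 106 measured members had one. Of the 18 members at least 1.5-fold below control 12 had a window, and Adrb3, Atf3, Csrnp1, Egr3, Fos and Nr4a3 had none. The cyclic AMP response element, TGACGTCA, was sought on both strands and occurs in 1.83% of all 33469 windows and, as a gene may have several, for 3.3% of 9208 measured genes with a window. It was found for 6 of the 85 members: Crem, which has 3 windows, Maff and Ppp1r15a among the 12 on the lower side, none of the 16 at least 1.5-fold above control, and Dusp1, Ier2 and Jund among the 57 within 1.5-fold. Matches were thus 3 of the 12 below control, 3 of the 57 within 1.5-fold and none of the 16 above, small counts that were not tested. For the core of the serum response element, a CArG box, only the form that the capitals of Dusp5 show was sought, on both strands and with 1 free letter. Other forms of the box were not counted or marked, such as one just before the capitals of Dusp5. The form sought occurs in 0.185% of all windows and for 0.141% of the same genes. Its letters were found for 3 of the 85 members, Dusp5 and Egr1 (9.78, 9.04 and 10.22) among the 12, none of the 16, and Eif2s1 among the 57. The letters do not overlap between the 2 elements. Windows of 4 genes are shown because they hold matches in genes at least 1.5-fold below control, with the matched letters in capitals, 5′ to 3′ on the gene's strand (Crem chr17:58985240-58985539, plus strand; Dusp5 chr1:262543524-262543823, plus strand; Maff chr7:112792537-112792836, plus strand; Ppp1r15a chr1:105139547-105139846, minus strand). A match describes the letters only.
Crem: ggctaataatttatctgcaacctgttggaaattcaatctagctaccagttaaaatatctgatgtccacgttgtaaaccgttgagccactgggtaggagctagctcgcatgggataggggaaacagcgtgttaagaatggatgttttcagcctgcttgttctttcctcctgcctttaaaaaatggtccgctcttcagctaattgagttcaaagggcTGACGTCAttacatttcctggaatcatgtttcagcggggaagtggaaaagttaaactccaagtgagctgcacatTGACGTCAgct
Maff: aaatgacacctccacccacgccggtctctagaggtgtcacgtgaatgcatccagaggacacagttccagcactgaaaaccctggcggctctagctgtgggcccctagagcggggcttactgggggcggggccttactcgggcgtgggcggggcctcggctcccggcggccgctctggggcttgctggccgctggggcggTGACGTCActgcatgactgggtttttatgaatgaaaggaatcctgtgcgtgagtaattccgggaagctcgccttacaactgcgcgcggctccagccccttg
Ppp1r15a: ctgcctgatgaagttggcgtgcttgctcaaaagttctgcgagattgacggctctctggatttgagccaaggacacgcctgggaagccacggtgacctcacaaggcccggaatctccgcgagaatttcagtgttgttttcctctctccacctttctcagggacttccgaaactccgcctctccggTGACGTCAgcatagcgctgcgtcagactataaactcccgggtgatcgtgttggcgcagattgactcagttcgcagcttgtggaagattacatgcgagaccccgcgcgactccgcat
Dusp5: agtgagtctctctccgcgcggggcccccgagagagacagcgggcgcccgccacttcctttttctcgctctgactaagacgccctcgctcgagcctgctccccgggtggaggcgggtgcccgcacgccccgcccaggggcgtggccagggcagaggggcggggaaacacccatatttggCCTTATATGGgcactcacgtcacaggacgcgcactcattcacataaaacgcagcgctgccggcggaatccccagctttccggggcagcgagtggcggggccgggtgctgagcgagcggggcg

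Dusp5, a nuclear phosphatase that switches off ERK and whose window holds the serum response letters, had 7.47 in control, 6.28 at 7 days and 6.24 at 14 days (2.28-fold lower). Its relative Dusp8, which acts on stress kinases, had 7.84, 6.38 and 7.05 (2.75-fold), while Dusp14 had 8.60, 9.79 and 9.50 (2.29-fold higher). Spry2 and Spry4, receptor feedback inhibitors, parted, Spry2 being 1.59-fold higher (9.37, 10.04 and 10.15) and Spry4 1.53-fold lower (7.78, 7.16 and 7.61). In the MAP kinase list of 27 measured genes 18 were above control, 5 passed 1.5-fold upward and 2 downward, and the median was 0.06.

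**Figure D4:**
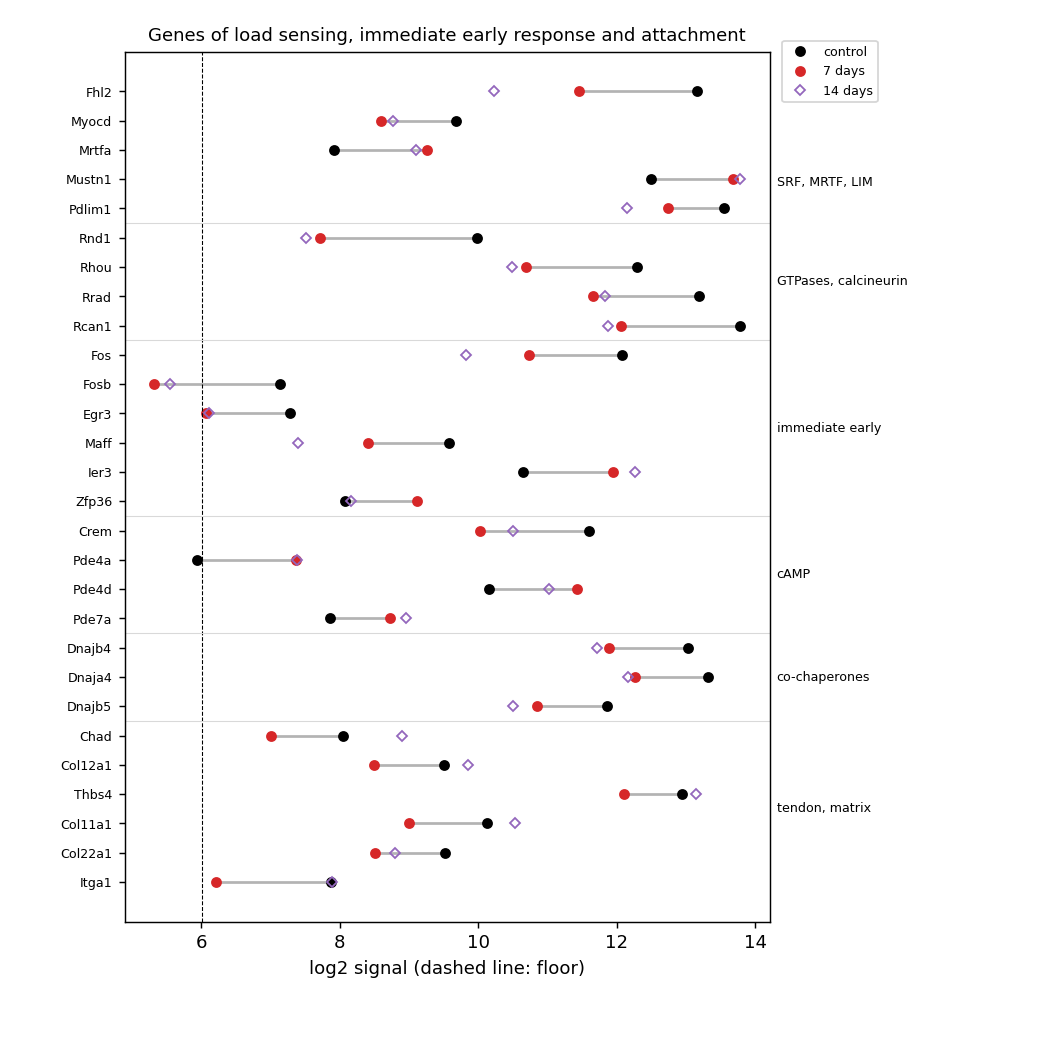
Log2 signals (horizontal axis) of 28 genes on the control (black), 7-day (red) and 14-day (open diamonds) arrays, with the floor as a dashed line. Most genes lie to the left of control at 7 days. Chad, Col12a1, Thbs4 and Col11a1 lie to the right of control again at 14 days, whereas Fhl2, Fos and Maff lie farther to the left.

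Co-chaperones of the Dnaj family, which load clients onto Hsp70, held more genes far below control than far above it: 7 of 36 passed 1.5-fold downward and 1 upward. Of these 36 genes 24 were below control, but the median of -0.10 was small and came to -0.025 with median-centred arrays. Bright members took part, Dnaja4 at 13.32 in control, 12.27 at 7 days and 12.16 at 14 days (2.07-fold lower, further probe set -1.10), Dnajb4 at 13.04 in control, 11.89 at 7 days and 11.71 at 14 days (2.22-fold) and Dnajb5 at 11.86 in control, 10.85 at 7 days and 10.50 at 14 days (2.03-fold, further probe sets -1.24 and -1.05). Dnajb2, which guards against aggregates in neurons and muscle, was 1.76-fold lower (10.95, 10.14 and 10.16). Dnajb14 was 2.13-fold higher, but its further probe set differed by 0.18. By contrast none of 14 measured genes of the cytosolic chaperonin and prefoldin passed 1.5-fold either way, with a median of 0.03. Smyd1, a methyltransferase that works with Hsp90 in myosin folding, was 1.93-fold lower (11.25 in control and 10.31 at 7 days).

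Tendon and attachment genes lay below control at 7 days. All 8 measured tendon cell markers, of 12 listed, were below control, 6 of them past 1.5-fold, and their median was -1.02. Chad, a cartilage and tendon matrix protein, had 8.04 in control, 7.01 at 7 days and 8.90 at 14 days (2.04-fold lower), Thbs4, a matrix protein of the muscle-tendon junction, 12.94 in control, 12.11 at 7 days and 13.15 at 14 days (1.79-fold), and Col12a1, a collagen on fibril surfaces, 9.51 in control, 8.50 at 7 days and 9.85 at 14 days (2.02-fold, further probe set -0.42). Fmod and Comp differed less, by -0.36 and -0.19. The summed unlogged signal of the list came to 21691 in control, 12219 at 7 days and 27924 at 14 days, and none of its genes was under the floor on both arrays. These genes were thus above control at 14 days in the sum. How much tendon each pool held was not tested.

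Some collagens were also below control at 7 days, but they differed at 14 days, when Col11a1 lay above control and Col22a1 still below it. Of 30 measured collagen genes 7 passed 1.5-fold downward and 3 upward. The fibril collagen Col11a1 had 10.12 in control, 8.99 at 7 days and 10.53 at 14 days (2.18-fold lower), with further probe sets from -1.13 to -0.51, and Col22a1, a collagen of the muscle-tendon junction, 9.52 in control, 8.50 at 7 days and 8.80 at 14 days (2.02-fold). Col10a1 was at least 3.71-fold lower, its 7-day signal lying under the floor. Serpinh1, the collagen chaperone Hsp47, had 12.22 in control, 11.58 at 7 days and 12.36 at 14 days (1.56-fold lower). Col6a6, a microfibril chain, stood apart at 8.13, 9.12 and 9.31 (1.99-fold higher). The list median of -0.26 depended on members under the floor: with genes that reached the floor in both pools it was 0.0808, so the collagens as a whole have no settled direction here. Tendon cell markers, given above, lay in the same direction as Col11a1 and Col22a1 at 7 days, and their part was not tested.

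Integrins, the receptors that tie cells to matrix, leaned downward, with 17 of 23 genes of that name below control, 8 past 1.5-fold downward, 1 upward and a median of -0.31. Itga1, a collagen receptor chain, had 7.87 in control, 6.21 at 7 days and 7.89 at 14 days (3.16-fold lower), so it was at its control signal at 14 days. Itga7, the laminin receptor chain of muscle fibres, was 1.5-fold lower (10.41, 9.83 and 9.76, further probe set -0.65), and Itgb6 1.74-fold (11.77, 10.97 and 10.81). Chains known from white blood cells lay below control too, Itgal at 7.26, 6.31 and 7.47 (1.94-fold lower) and Itgae at 10.41, 9.57 and 9.86 (1.79-fold). The 1 gene past the limit upward, Itgb3bp, is a nuclear protein that shares only the name stem.

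Secreted growth signals gave several large differences at low signals. Fgf9 and Bdnf, growth factors of the fibroblast and neurotrophin families, lay at 8.22 in control and 5.92 at 7 days and at 7.82 in control and 5.11 at 7 days. The 7-day signals were under the floor, so these are bounds of at least 4.62-fold and at least 3.49-fold, and the further probe set of Fgf9 differed by -0.52. The receptor decoy Fgfrl1 was 2.57-fold higher (8.89, 10.25 and 9.18) and Fgfr4, a receptor of muscle progenitors, 1.91-fold (7.01, 7.95 and 7.83). In the TGF-beta family Ltbp2, which binds matrix microfibrils, was at least 3.61-fold lower, Pmepa1, a feedback inhibitor, 2.77-fold lower (10.98, 9.51 and 10.05), and Smad7, another one, 1.63-fold (7.96, 7.26 and 7.47), though the mean of the probe sets of Smad7 differed by 0.23. Acvr2b, the receptor of myostatin and activins, was 1.91-fold higher (7.25, 8.18 and 8.40). Of these 45 measured genes 6 passed 1.5-fold downward and 4 upward, with a median of -0.14.

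The 2 insulin-like growth factor binding proteins past 1.5-fold, of 6 measured, were both above control. Igfbp5, a regulator of muscle growth, had 11.83 in control, 12.84 at 7 days and 12.96 at 14 days (2.01-fold higher), with further probe sets from 0.08 to 1.48, and Igfbp3 9.80, 11.26 and 10.80. Neuropeptide Y and its receptor parted: Npy had 8.51 in control, 6.95 at 7 days and 7.63 at 14 days (2.94-fold lower) and Npy1r 7.82 in control, 9.40 at 7 days and 9.26 at 14 days (2.99-fold higher). Ghr, the growth hormone receptor, was 1.68-fold higher (10.29, 11.03 and 10.92), with 1.05 in a further probe set, and Socs2, its feedback inhibitor, 1.82-fold (6.19, 7.06 and 7.28).

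Genes of the triad, where the fibre membrane signals to the calcium store, leaned upward, with 20 of 25 above control and a median of 0.27. Few differed by much, 2 passing 1.5-fold upward and 2 downward. Cacng1, a subunit of the voltage sensor, had 12.57 in control, 13.55 at 7 days and 13.33 at 14 days (1.97-fold higher), and Sln, the small inhibitor of the calcium pump, 13.84 in control, 14.66 at 7 days and 13.38 at 14 days (1.77-fold). Jph1, which ties both membranes together, differed by 0.52 and the release channel Ryr1 by 0.38. Ryr3, a minor release channel, was the lowest of the list at 8.87 in control, 7.0 at 7 days and 7.34 at 14 days (3.66-fold lower). Among potassium channels Kcnj11, the ATP-sensitive channel, was 2.19-fold lower (12.09, 10.96 and 11.14), with further probe sets from -1.10 to -0.17. Trim72, which seals torn fibre membranes, was 1.76-fold lower (13.90, 13.08 and 13.17), and 16 of 25 genes of caveolae and membrane repair were below control.

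A pair of cold-inducible RNA-binding proteins stood above control. Cirbp had 9.91 in control, 10.90 at 7 days and 10.66 at 14 days (1.99-fold higher), with 1.29 and 1.32 in further probe sets, and Rbm3 13.02 in control, 13.95 at 7 days and 13.63 at 14 days (1.91-fold). Both are known to follow temperature in other tissues. In the list of messenger decay and cold-inducible binding proteins 17 of 23 genes were above control, with a median of 0.25. Among splicing regulators Rbfox2, which guides muscle splicing, was 1.76-fold higher (8.36, 9.18 and 8.81), with 0.95 in a further probe set.

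Nuclear transport and chromatin gave single genes rather than groups. The exportin Xpo4 was 4.28-fold lower (13.19, 11.10 and 10.64), with -1.57 and -1.17 in further probe sets. The importins Kpna6 (8.37, 6.78 and 7.02) and Kpna4 (12.14, 11.44 and 11.33) were 3.0-fold and 1.63-fold lower. In their list of 27 genes 3 passed 1.5-fold downward and 1 upward, with a median of -0.06. Tet1, which oxidises methylcytosine, was at least 3.71-fold higher from a control signal under the floor, and Setd1b, a histone H3 methyltransferase, 2.83-fold higher (8.33, 9.83 and 9.69). Dnmt3a, which methylates DNA, was 1.64-fold higher (8.27, 8.99 and 8.61) with 1.63 in a further probe set, and Hdac4, a repressor of muscle genes after nerve loss, 1.84-fold (6.62, 7.49 and 7.13). Hdac6, which acts on tubulin, was 2.18-fold lower at 7 days and above control at 14 days (7.35, 6.23 and 7.58). Of 38 measured chromatin genes 5 passed 1.5-fold upward and 2 downward.

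Ubiquitin ligase adaptors of the Kelch-like family had 2 bright members on the upper side. Klhl33 had 10.15 in control, 11.93 at 7 days and 11.48 at 14 days (3.44-fold higher) and Klhl38, known from wasting muscle, 10.88 in control, 11.89 at 7 days and 10.40 at 14 days (2.01-fold) and thus below control at 14 days. Klhl40, a guardian of thin filament proteins, was 1.54-fold lower (13.03, 12.41 and 12.36). The family as a whole, 33 measured genes, gave 4 past 1.5-fold upward and 2 downward, with a median of 0.17. The F-box proteins, 42 measured, gave 2 and 4, with a median of 0.09.

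Markers of cells other than muscle fibres also differed between the pools. Macrophage markers stood above control for 15 of 16 genes, 9 of which passed 1.5-fold and none as far below, with a median of 0.59 and a summed unlogged signal of 10764 in control, 16343 at 7 days and 15379 at 14 days. Among them Lyve1, a marker of resident macrophages and lymph vessels, had 10.83 in control, 11.66 at 7 days and 11.09 at 14 days (1.78-fold higher, further probe set 0.75), and Tyrobp, an adaptor of their receptors, 7.90 in control, 8.56 at 7 days and 8.90 at 14 days (1.58-fold). Aif1 (1.82-fold higher) had a further probe set of -0.21, and the mean of its probe sets differed by -0.66. The lysosomal protease Ctsc, common in immune cells, was 1.97-fold higher (10.11, 11.09 and 10.92), with 1.41 in a further probe set, and 9 of 12 cathepsins were above control.

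Of 14 fibroblast markers 12 were above control, with a median of 0.36 and a summed signal of 132492 in control, 161706 at 7 days and 194159 at 14 days, and all 6 measured nerve and Schwann cell markers were above it, such as Mbp at 9.78, 10.40 and 10.91 and Gap43 at 8.02, 8.70 and 8.68, while Mag, Nefl, Nefm and Sox10 lay under the floor on both arrays. Of 14 lymphocyte markers on the array 10 lay under the floor on both arrays, among them the T cell genes Cd3d, Cd3e and Cd8a and the B cell gene Ms4a1, and the 4 measured ones were below control. Of 35 interferon-induced genes 25 were above control and the median was 0.18, with Psmb9, an immunoproteasome subunit, at 8.35, 9.15 and 9.03 (1.74-fold higher) and Ifit1 as an exception, at least 2.97-fold lower. The part of these cell types in the gene groups above was not tested.

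Several genes of large difference belonged to no group described above. Capn6, a calpain without protease activity, had 6.17 in control, 8.08 at 7 days and 7.89 at 14 days (3.77-fold higher). Mybph, a relative of myosin-binding protein C, had 12.21 in control, 13.84 at 7 days and 12.28 at 14 days (3.1-fold), back at the control signal at 14 days. Il18bp, which neutralises interleukin 18, had 6.23 in control, 8.04 at 7 days and 7.70 at 14 days (3.51-fold) and Flvcr1, an exporter of heme and choline, 9.26 in control, 10.83 at 7 days and 9.83 at 14 days (2.97-fold). Gpcpd1, which cleaves glycerophosphocholine, was 3.34-fold higher (9.18, 10.91 and 11.02), but only 0.62 apart in a further probe set.

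On the lower side Cda, cytidine deaminase, had 10.63 in control, 8.67 at 7 days and 8.89 at 14 days (3.88-fold lower), and Uck2, which salvages pyrimidines, 9.48, 8.55 and 8.44 (1.89-fold). Inpp5j, a phosphatase of membrane lipids, had 8.10 in control, 6.22 at 7 days and 5.33 at 14 days (3.67-fold) and Tnnt2, the cardiac form of troponin T, 10.34 in control, 8.69 at 7 days and 9.15 at 14 days (3.14-fold). Casp6, a caspase, was 3.04-fold lower (7.73, 6.12 and 7.05) and Otud1, a deubiquitinase, 2.95-fold (12.11, 10.55 and 10.89). Padi2, which turns arginine into citrulline in proteins, was 3.23-fold lower at 7 days and above control at 14 days (8.07, 6.38 and 9.11).

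Many gene groups lay near the background. Genes of purine synthesis, secretory coats, DNA repair, WNT and NOTCH signalling had medians between -0.04 and 0.09. Others leaned upward with few genes far from control. Of 40 SR proteins and other splicing regulators 27 were above control, with 2 past 1.5-fold upward, none downward and a median of 0.14. Ribosome biogenesis had 25 of 34 genes above control, with 1 past 1.5-fold upward, 2 downward and a median of 0.11. Among solute carriers, 180 measured, 23 passed 1.5-fold upward and 26 downward, with a median of -0.03. The plot of list members by group shows how far the members of the described groups scattered on either side of 0.

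**Figure D5:**
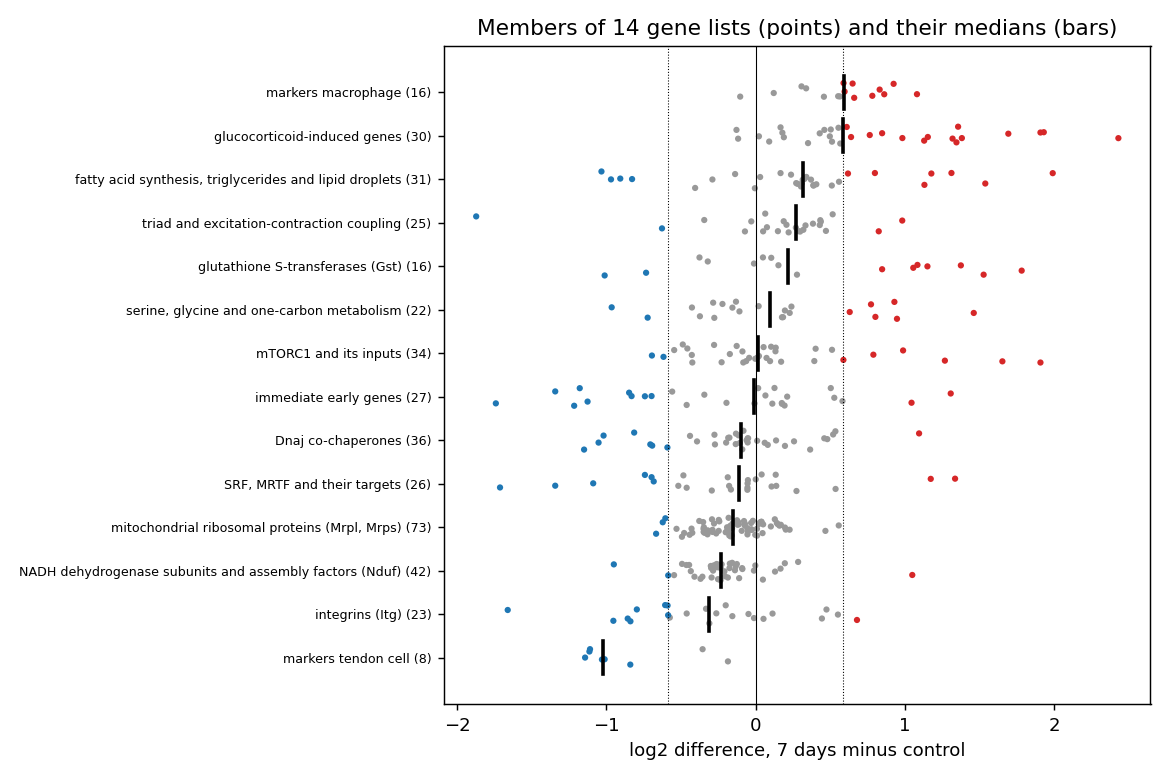
Log2 difference between 7 days and control (horizontal axis) for the measured members (points) of 14 gene lists and families (rows, number measured in brackets), with the median as a black bar. Red and blue points lie at least 1.5-fold above or below control, the dotted lines. Medians run from -1.02 for tendon cell markers to 0.59 for macrophage markers and glucocorticoid-induced genes.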

How the data were processed

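Total RNA of rat soleus was hybridised as 1 pool of 4 rats per group, per the labels. The authors deposited log2 signals per probe set; the program that made them is not given in the sources used here, and they were used unscaled. The 31099 probe sets hold 57 controls, 20826 with 1 gene in the platform annotation, 436 with several and 9780 with none; 14167 of 14217 named genes matched RefSeq by gene ID. The probe set with the highest signal averaged over the arrays stood for a gene, and signals under the 40th percentile of all values were set to that floor. Differences are 7 days minus control, with no test. The members and the 74 gene lists and 49 symbol families were chosen with earlier results of these data known. Named genes follow a rule: the 40 largest and 40 smallest differences that reached the floor in both pools, up to 15 bounds per direction, up to 6 members per list or family of largest absolute difference, and members needed to state a list's role. Some genes chosen this way are left unprinted. Counts and medians were tested on simulated data for genes with control signals well above the floor, so the handling of values under it was not tested. Alternatives covered scaling, floor, filter and probe set choice. Python 3.11.15, pandas 2.3.3, numpy 2.4.6 and matplotlib 3.10.9 were used.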

Additional observations from a re-analysis of the deposited data

Results flagged for a closer look

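Probe sets with no gene in the annotation lay outside the comparison of named genes. Of 4882 such probe sets that reached the floor in either pool, 140 (2.87%) stood at least 2-fold above control at 7 days and 125 (2.56%) at least 2-fold below it. The largest difference upward was that of probe set 1378808_at, with log2 signals of 9.55 in control, 11.95 at 7 days and 10.15 at 14 days, a log2 difference of 2.40 at 7 days. It was followed by 1391617_at with 9.75, 12.08 and 11.53, a difference of 2.34. They are listed because the signal at 7 days exceeded the control and no named gene accounts for it.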

How the results depend on the processing

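No paired analysis was possible because each group has 1 pooled array, and for the same reason no replicate could be left out. With values under the floor left as deposited, 416 genes stood at least 2-fold above and 590 at least 2-fold below control. With no floor and no filter these were 1047 and 1505, and at 1.5-fold 2053 and 2600. With each array centred on its median, the medians of the mitochondrial ribosome and complex I moved to -0.082 and -0.16. With all probe sets of a gene averaged, the median of fat synthesis moved to 0.20 and that of immediate early genes to -0.20. The technical SD of a list median was derived from the single probe set value of 0.36 and the number of members, taken as independent. Of 23 lists and families with medians at least 2 such SDs from 0, 21 kept their sign under all 8 alternatives. The exceptions were collagens, at 0.0805 with the floor at the 50th percentile and 0.0808 with genes that reached it in both pools, and complement, at -0.078 with no floor and no filter. Of 209 named genes at least 1.5-fold apart, 202 kept their sign under every alternative that kept them. With the mean of all probe sets 7 did not: Adcy6 at -0.018, Aif1 at -0.66, Foxo3 at -0.36, Klf9 at -0.13, Slc38a1 at 0.24, Smad7 at 0.23 and Trib3 at -0.043. The cause was not tested. Low signal limits the values near the floor.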

Other observations

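The largest difference of any probe set without a named gene was downward. Probe set 1377721_at had log2 signals of 11.11 in control, 6.80 at 7 days and 5.75 at 14 days, a log2 difference of -4.31 at 7 days, which is more negative than that of any named gene measured here. Probe set 1378866_at had 8.92, 6.55 and 6.24, a difference of -2.37. Their genes were not analysed here.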
